A study of Mus musculus with 111 samples.

Results

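Single mouse embryos with the same control treatment were compared between 2 experiments. The control embryos of experiment 1 (24 embryos) and of experiment 3 (25 embryos) were taken by their titles, out of 111 embryos in the series. All 49 were 2-cell embryos of strain B6129F1, grown from oocytes at the germinal vesicle stage that had received a set of 2 control siRNAs at 20 µM each. Per the labels, control injections also carried 150 ng per µl of RNA for H2B-EGFP, a histone H2B fused to a green fluorescent protein, as a sign that the injection had worked. After injection came 5 hours of meiotic arrest, 12 hours of maturation, in vitro fertilization and culture in the embryo medium KSOM. Polyadenylated RNA of each embryo was read with SmartSeq2 and oligo dT priming. The other embryos were 7 controls of experiment 2 and 55 embryos injected with siRNAs against Nr5a2, the gene of an orphan nuclear receptor, 16 of them in experiment 1 and 23 in experiment 3. The comparison shows how far control embryos of one design differed from experiment to experiment. The labels name only the experiment number, so whatever differed between the experiments, the marker level included, cannot be told apart.

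A mouse embryo at the 2-cell stage lives on RNA stored in the egg while that store is being destroyed and its own genome is being switched on. Zygotic transcription begins weakly in the zygote and becomes broad at the late 2-cell stage, with transient transcripts such as Zscan4 and Zfp352 as its best known products. Stored messages for eggshell proteins, egg-specific NLRP proteins and oocyte factors fall over the same hours. Each library came from a whole lysed embryo, so fewer cells of a type and less RNA per cell cannot be told apart.

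Totals over genes ran from 2.74 to 15.2 M estimated counts in experiment 1 (median 4.71 M) and from 4.19 to 7.27 M in experiment 3 (median 5.35 M). Of the experiment 1 embryos, 8 lay below that second range, 9 within it and 7 above it. Genes with a count numbered 18023 ± 814 (SD, n = 24) and 17996 ± 690 (SD, n = 25), a difference well inside the spread (two-sided permutation test, p = 0.910, adjusted p = 0.914 over 4 measures). The 50 most abundant genes held 24.2% ± 4.91 and 21.6% ± 2.55 of the counts (permutation p = 0.0261, adjusted p = 0.104). All 9 markers of the 2-cell embryo were above 0 in every library. They were Zscan4c, Zscan4d, Zfp352, Tdpoz4, Usp17la, and Dppa3, Zp3, Gdf9 and Padi6, which are also oocyte-deposited. Their summed level was 1905 to 5015 CPM (counts per M) in experiment 1 and 2259 to 4196 CPM in experiment 3. Dppa3 had the highest medians, 1086 and 1384 CPM, so the sum does not measure zygotic transcripts alone. Each embryo was taken as 1 sample, and since the labels name neither mothers nor plates, p-values measure the spread between these embryos only.

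The marker set the groups apart from the start, and its levels are part of how the groups were chosen, so they are described without a test. In experiment 1 the control libraries held 0 to 30 EGFP counts (median 0.00390), and 10 of 24 held none, although the labels give these injections the same marker. In experiment 3 they held 18 to 3628 counts (median 641). Embryo 3 of experiment 3 had the 18 counts, and the next lowest embryo of that experiment had 385. RNA for rsEGFP, the variant injected with the Nr5a2 siRNAs, stayed at 2.16 counts or fewer in all 49 control libraries.

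The gene with the largest rise was H2bc21, a gene for histone H2B, the protein that the marker RNA also codes for. Its level was 0 to 12.0 CPM in experiment 1 (median 0.446) and 1.46 to 157 CPM in experiment 3 (median 35.9). All but 1 of the experiment 3 embryos lay above the highest embryo of experiment 1, and the exception was embryo 3, the one with hardly any marker. The log2 fold change, given throughout as experiment 3 minus experiment 1, was 5.22 (SE 0.47, adjusted p = 8.79e-12, edgeR's quasi-likelihood test over all genes). Within experiment 3 the level of H2bc21 followed the EGFP level from embryo to embryo, with Pearson's r of 0.989 and Spearman's rho of 0.972 (n = 25). Without the 2 embryos farthest from the median r was 0.982. Over the 5 groups with marker RNA, r lay between 0.979 and 0.998. Of the other H2B genes, H2bc9 (log2 fold change -0.30, adjusted p = 0.244) and H2bc4 (-0.13, adjusted p = 0.881) were tested and neither passed. Whether reads of the marker RNA were assigned to H2bc21 was not tested, and the relation was looked for after its values were seen.

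**Figure D1:**
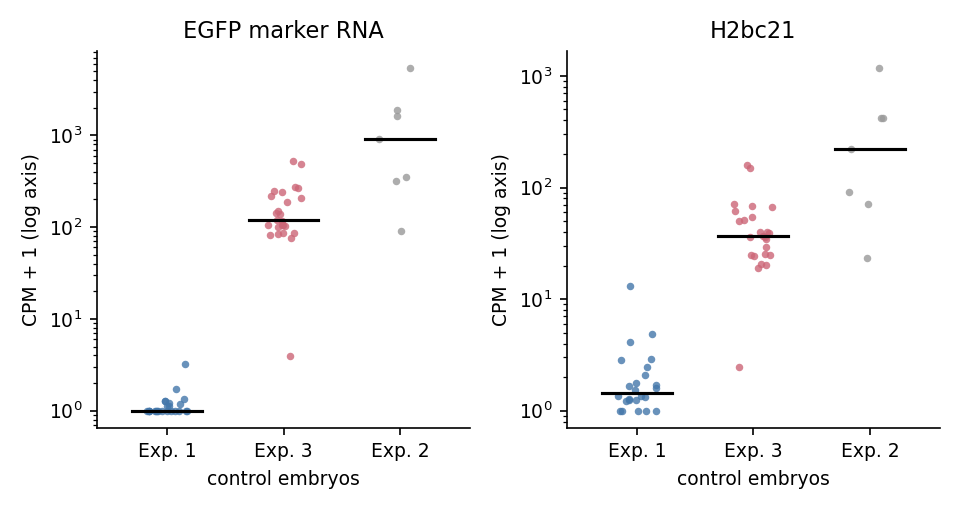
Levels of the EGFP marker RNA (left) and of H2bc21 (right) in each control embryo, as CPM + 1 on a log axis, with points for embryos and bars for medians of experiments 1, 3 and 2. The experiment 1 embryos sit at or near the floor in both panels, and 1 embryo of experiment 3 lies low in both.

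Beyond the marker, the control embryos differed at many genes, mostly by less than 2-fold. Of 13496 genes tested, 603 were higher in experiment 3 (4.47%) and 876 were lower (6.49%), together 11.0% at an adjusted p under 0.05. Differences of at least 2-fold were lopsided: 55 genes were that much higher (0.408%) and 239 that much lower (1.77%). The CPM of the groups overlapped almost everywhere, since 1 gene, Nefl, lay lower in every experiment 3 embryo than in any of experiment 1 (0.00741%) and 0 genes lay higher in that way (0.0%). On simulated counts of this design, with 13208 genes tested, 76.8% of 99 genes changed 2-fold and 21.6% of 97 genes changed 1.5-fold were called. With only the 9 experiment 1 embryos whose totals fell in the range of experiment 3, a setting chosen after the data were seen, 95 genes were higher and 328 lower, and 387 of the 1479 calls passed again. Fewer embryos also give less power, so calls lost there cannot be laid to depth alone. With all embryos kept, 1283 of the calls passed after thinning to the smallest total and 1405 with the library total as covariate. When libraries were scaled on the oocyte-deposited transcripts instead, the median of all genes moved to -0.27 and the split became 87 higher and 2096 lower, so small differences below are relative to TMM scaling.

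**Figure D2:**
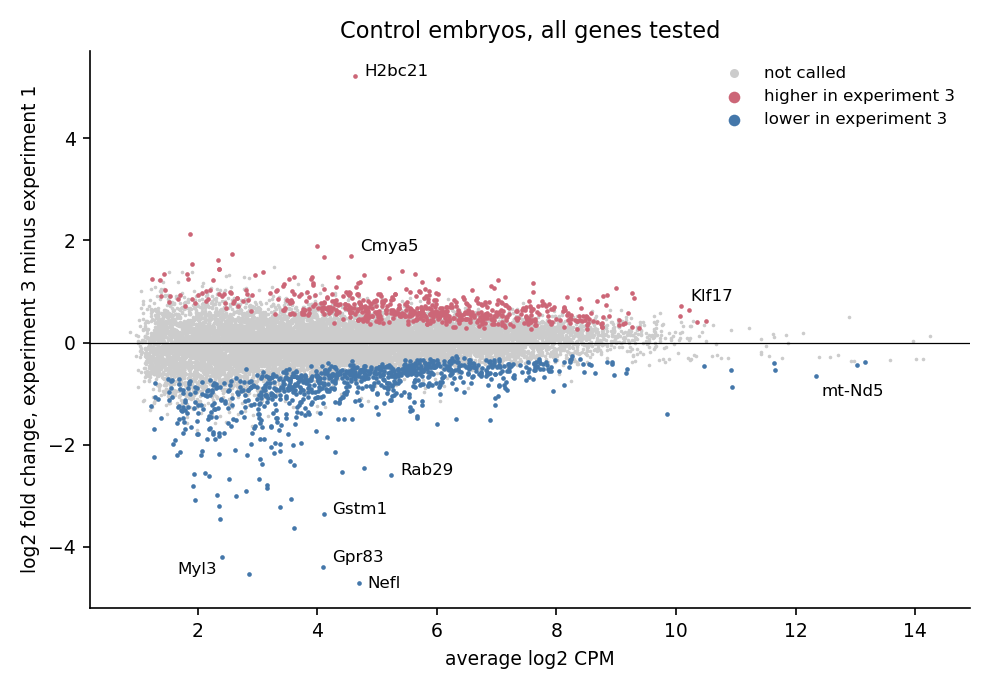
Log2 fold change (experiment 3 minus experiment 1) of each gene tested in control embryos against its average log2 CPM, with called genes in colour. H2bc21 stands alone at the top, while the lower side holds a tail of genes below -2.

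Among called genes with an average log2 CPM of at least 4, clone names left out, the largest falls in experiment 3 were those of Nefl, Gpr83, Gstm1 and Rab29. Nefl encodes the light neurofilament subunit of neurons. It measured 25.5 to 94.2 CPM in experiment 1 (median 45.1) and 0 to 14.4 CPM in experiment 3 (median 0). It was at 0 in 13 of 25 embryos of experiment 3 and in none of experiment 1, so the groups did not overlap (log2 fold change -4.70, SE 0.50, adjusted p = 2.04e-09). Rab29, a small GTPase of the Golgi and lysosomes, measured 36.3 to 91.9 CPM in experiment 1 (median 65.4) against 0.998 to 37.3 CPM in experiment 3 (median 9.11). Here 24 of 25 embryos of experiment 3 lay below the lowest of experiment 1, and it had the smallest p of all lower genes (-2.60, SE 0.22, adjusted p = 3.36e-12). Gpr83, a G protein-coupled receptor, measured 1.70 to 93.2 CPM (median 18.6) against 0 to 12.3 CPM (median 0). Its ranges overlapped, yet all 25 embryos of experiment 3 lay below the experiment 1 median (-4.40, SE 0.61, adjusted p = 1.53e-06).

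The same held for Gstm1, a glutathione transferase, which measured 2.88 to 88.1 CPM in experiment 1 (median 20.7) and 0 to 15.8 CPM in experiment 3 (median 1.09, log2 fold change -3.36). Fam136a, a mitochondrial protein gene, measured 12.9 to 92.3 CPM (median 60.1) and 2.00 to 40.7 CPM (median 11.1, log2 fold change -2.15). Sphk1, the kinase that makes sphingosine phosphate, measured 7.30 to 208 CPM (median 33.8) and 0.546 to 31.4 CPM (median 5.59, log2 fold change -2.45). In each of these genes every embryo of experiment 3 lay below the experiment 1 median, as was the case for Myl3, a light chain of muscle myosin (medians 13.0 and 0.208 CPM, log2 fold change -4.53). Nlrp6, an inflammasome sensor, fell by 2.53 on the log2 scale, with 24 of 25 embryos below that median. Prob1 (-2.14), the simple keratin gene Krt18 (-1.84) and the stress-induced Ndrg1 (-1.59) completed the 10 largest falls, with adjusted p from 3.36e-12 for Rab29 to 0.00132 for Krt18. All 10 and Myl3 also passed with the 9 depth-matched embryos. They passed under scaling on the oocyte list too, but that scaling moves genes downward as a whole and so favours falls. The 7 control embryos of experiment 2 had medians nearer to experiment 3 than to experiment 1 for 9 of the 10, Nlrp6 being the exception. Their Rab29 level was 2.26 to 15.8 CPM (median 9.13), below all embryos of experiment 1.

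The promoters of Rab29 and Gpr83, both among the 10 largest falls, and of Klf17, an abundant gene with a smaller rise described below, are shown as examples of each direction. Nefl and Fam136a had no promoter entry. The windows hold the 250 bases before the RefSeq start (GRCm38.p6), on the gene's strand, and capitals mark matches to 4 motifs on either strand.
Rab29, chr1:131867027-131867276, plus strand: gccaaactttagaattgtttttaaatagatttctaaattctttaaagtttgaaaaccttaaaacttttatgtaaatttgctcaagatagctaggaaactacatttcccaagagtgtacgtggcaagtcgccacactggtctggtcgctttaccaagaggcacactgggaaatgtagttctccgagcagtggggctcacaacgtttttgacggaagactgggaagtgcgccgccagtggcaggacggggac
Gpr83, chr9:14859960-14860209, plus strand: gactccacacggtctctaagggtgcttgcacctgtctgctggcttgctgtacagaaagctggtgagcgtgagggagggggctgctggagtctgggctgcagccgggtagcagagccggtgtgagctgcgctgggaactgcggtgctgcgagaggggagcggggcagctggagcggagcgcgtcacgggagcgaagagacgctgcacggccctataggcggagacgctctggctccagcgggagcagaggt
Klf17, chr4:117765667-117765916, minus strand: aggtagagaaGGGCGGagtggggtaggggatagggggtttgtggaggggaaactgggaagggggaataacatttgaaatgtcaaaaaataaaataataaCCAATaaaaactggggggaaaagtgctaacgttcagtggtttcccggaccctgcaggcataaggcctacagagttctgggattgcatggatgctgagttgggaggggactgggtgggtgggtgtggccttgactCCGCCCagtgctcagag
The motifs were the TATA box (TATAAA), the CCAAT box (CCAAT), the GC box (GGGCGG) and a motif of Nr5a2-like receptors (AAGGTCA), each with its reverse complement. Klf17 held 3 matches, which were 1 CCAAT box and 2 GC boxes, while Rab29 and Gpr83 held 0. The Rab29 window was 44% GC with 9 CpG dinucleotides, and that of Gpr83 was 66.8% GC with 18. Of 10151 tested genes with a promoter entry, 56.5% held a GC box, 37.6% a CCAAT box, 6.99% a TATA box and 2.91% the receptor motif. A GC box stood in 61.2% of 495 higher and 67.1% of 665 lower promoters, and a TATA box in 8.08% and 4.81%. The receptor motif stood in 3.03% and 3.16%. These are counts of letters, and the motifs and genes shown were chosen after the fold changes were known.

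The higher genes rose by less. Cmya5, known as a protein of striated muscle, measured 0.405 to 36.0 CPM in experiment 1 (median 7.95) and 4.91 to 135 CPM in experiment 3 (median 28.6). The ranges overlapped, with 23 of 25 embryos above the experiment 1 median (log2 fold change 1.70, SE 0.31, adjusted p = 0.000134). Fkbp6, a co-chaperone of the germline piRNA pathway, measured 0 to 30.2 CPM (median 4.96) and 4.15 to 65.2 CPM (median 18.8, log2 fold change 1.68). Ift43, part of the transport machinery of cilia, measured 2.37 to 87.5 CPM (median 23.2) and 36.5 to 200.14 CPM (median 57.7, log2 fold change 1.19). All 25 embryos of experiment 3 lay above the experiment 1 median for Ift43. The other large rises were AA684185 (1.40), Hpdl (1.35), Sgsh of lysosomal heparan sulfate breakdown (1.33), Mcfd2 of transport from the endoplasmic reticulum (1.25), H1f8 (1.22) and the antiproliferative gene Btg3 (1.18). Sgsh no longer passed without embryo 3 of experiment 3 (1.36, adjusted p = 0.0507). Cmya5 and Fkbp6, beside H2bc21, passed with the 9 depth-matched embryos, and the other 7 of the 10 did not. For 7 of the 10 the experiment 2 median was nearer to experiment 3, and for AA684185, Sgsh and Btg3 nearer to experiment 1.

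After H2bc21 the smallest p among higher genes belonged to Dek and Rnf19a, whose rises were small. Dek, a chromatin protein, measured 70.2 to 259.9 CPM in experiment 1 (median 172) and 162 to 392 CPM in experiment 3 (median 264). All but 1 of the 25 embryos lay above the experiment 1 median (log2 fold change 0.75, SE 0.12, adjusted p = 1.72e-05). Rnf19a, a ubiquitin ligase, measured 48.1 to 97.4 CPM (median 64.9) and 65.5 to 129 CPM (median 98.1), with 25 of 25 embryos above (0.54, SE 0.09, adjusted p = 2.60e-05). The experiment 2 median was 148 CPM for Dek, below both experiments, and 99.1 CPM for Rnf19a, close to that of experiment 3. Under scaling on the oocyte list Dek (0.45) and Rnf19a (0.27) kept their sign but did not pass.

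**Figure D3:**
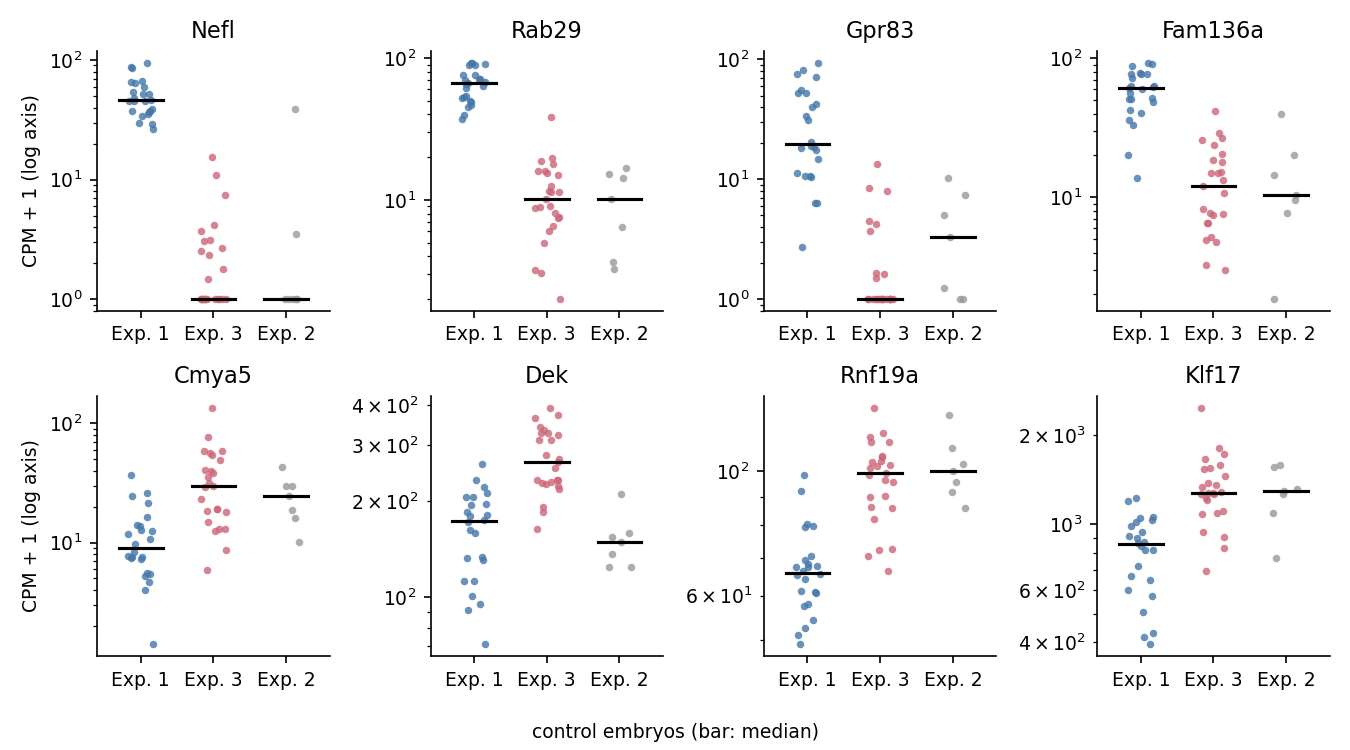
Levels of 4 lower genes (top row) and 4 higher genes (bottom row) in each control embryo, as CPM + 1 on log axes that differ between panels, with medians as bars. Nefl is the gene whose experiments 1 and 3 do not overlap, and in the bottom row the ranges of experiments 1 and 3 overlap in every panel.

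The list of messages stored in the egg held more rises than falls, but most of the rises no longer passed without 2 of the embryos. Of 47 tested oocyte-deposited transcripts, 9 rose and 2 fell, which is 19.1% and 4.26% beside 4.47% and 6.49% of all genes. The list's median was 0.28. It turned to -0.03 when libraries were scaled on this list, a scaling that makes the list's own sum equal in all libraries. The 9 were Nlrp4f, Nlrp2, Btg4, Lhx8, Rfpl4, H1f8, Oosp2, Bcl2l10 and the germ cell helicase Ddx4. Nlrp4f, one of the egg's NLRP genes, measured 121 to 818 CPM in experiment 1 (median 298) and 191 to 2959 CPM in experiment 3 (median 542). Its groups overlapped broadly, and 20 of 25 embryos lay above the experiment 1 median (log2 fold change 1.07, SE 0.23, adjusted p = 0.00133). H1f8, the linker histone of the oocyte, was high in few embryos: medians were 44.9 and 65.2 CPM, while the highest values reached 551 and 1131 CPM. Without the embryo least like the others in each group (embryo 8 of experiment 1 and embryo 6 of experiment 3) 6 of the 9 no longer passed, H1f8 (1.14, adjusted p = 0.0560), Btg4 (0.76, adjusted p = 0.0599), Bcl2l10, Lhx8, Oosp2 and Rfpl4. Then 3 members of the list rose and 3 fell, 6.38% each. With the 9 depth-matched embryos 0 rose and 1 fell. The falls were Tle6, of the subcortical maternal complex (-0.35, adjusted p = 0.0243), and the zona pellucida gene Zp2 (-0.48, adjusted p = 0.0470, and 0.0577 without embryo 3 of experiment 3). Other stored messages did not pass, such as Zp3 (0.09), Padi6 (-0.04) and the growth factor gene Gdf9 (-0.41, adjusted p = 0.0651).

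Regulators of stored messages had members called in both directions. Of 31 genes for storage and decay of maternal RNA, 3 rose (9.68%) and 5 fell (16.1%), beside 4.47% and 6.49% of all genes (median 0.14, and -0.14 under scaling on the oocyte list). Btg4, the adaptor that brings the CCR4-NOT deadenylase to maternal messages, measured 74.5 to 1609 CPM (median 293) and 221 to 2983 CPM (median 534, log2 fold change 0.97). The other rises were the deadenylase subunit Pan2 (0.54) and Cnot4 (0.57). The falls were the uridylating enzyme Tut4 (-1.04), the deadenylase Cnot6 (-0.47), Lsm14b (-0.66), the AU-rich element binding Zfp36l2 (-0.95) and the storage protein Ybx2 (-0.70). Without the 2 least-like embryos Cnot4 (0.45, adjusted p = 0.0652) and Zfp36l2 (-0.84, adjusted p = 0.0506) did not pass, and with the 9 depth-matched embryos 0 of the list rose or fell. Among 57 Obox and PRAME-like genes 4 rose (7.02%) and 1 fell (1.75%), with the share of rises not far from the 4.47% of all genes (median 0.16, and -0.10 under scaling on the oocyte list). The rises were Obox1 (0.88), Obox2 (0.91), Obox5 (0.89) and Pramel13 (0.47), and the fall was Pramel1 (-1.38), while Obox5 did not pass without the 2 least-like embryos (0.71, adjusted p = 0.0912). The Obox genes encode homeodomain proteins of the egg and early embryo and are close copies, so their reads may have been split between them.

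The hallmark transcripts of genome activation gave 1 call. Of 36 tested transient 2-cell transcripts 0 rose and 1 fell (2.78%), beside 4.47% and 6.49% of all genes. Their median was 0.05, which turned to -0.25 under scaling on the oocyte list. The list's mean log2(CPM + 1) was 4.84 to 8.10 in experiment 1 and 5.36 to 7.77 in experiment 3, so embryos of one experiment spread far more than the groups differed. Zfp352 measured 50.04 to 1416 CPM (median 373) in experiment 1 and 64.0 to 1012 CPM (median 349) in experiment 3 (log2 fold change -0.02, adjusted p = 0.977). Zscan4a alone fell, from 41.4 to 499.7 CPM (median 119) to 27.9 to 225 CPM (median 66.2), a difference of -1.09 (SE 0.26, adjusted p = 0.00364). Its relatives Zscan4c (-0.88, adjusted p = 0.204), Zscan4d (0.22, adjusted p = 0.760) and Zscan4f (-0.75, adjusted p = 0.236) did not pass, and these near-identical copies can share reads. With the 9 depth-matched embryos Zscan4a was not called, Zscan4c (0.33), Zscan4f (0.15) and Zfp352 (0.093) turned in sign, and under scaling on the oocyte list Zscan4d turned (-0.082) and 4 members of the list fell. Of 17 chaperone genes of the early wave, 2 rose (11.8%), Hspd1 (0.57) and Hspe1 (0.68), the partners of the mitochondrial chaperonin, and 0 fell. That list had a median of 0.34, and 0.13 under scaling on the oocyte list, where 0 of its members rose.

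Factors that act on genome activation held calls at shares not far from those of all genes. Of 37 tested regulators and nuclear receptors 2 rose (5.41%, beside 4.47%) and 4 fell (10.8%, beside 6.49%), with a median of 0.00. Klf17, a zinc finger factor abundant in the egg and 2-cell embryo, measured 394 to 1230.2 CPM in experiment 1 (median 855) and 696 to 2478 CPM in experiment 3 (median 1280.4). The ranges overlapped, and 16 of 25 embryos of experiment 3 lay above the highest of experiment 1 (log2 fold change 0.71, SE 0.12, adjusted p = 4.97e-05). Tfap2c, a factor of the later trophectoderm, also rose (0.56, adjusted p = 0.0263). Klf4, a related zinc finger factor of pluripotent cells, measured 8.83 to 59.3 CPM (median 20.4) and 4.47 to 23.1 CPM (median 11.7), with 23 of 25 embryos below the experiment 1 median (-0.93, SE 0.19, adjusted p = 0.000495). The orphan receptor Esrrb (-0.79), Klf5 (-0.41) and the remodeller Smarca5 (-0.37, adjusted p = 0.0498) fell as well. Without embryo 3 of experiment 3 Klf5 (-0.38, adjusted p = 0.0724) and Smarca5 (-0.35, adjusted p = 0.0795) did not pass, and with the 9 depth-matched embryos Klf4 did not (-0.75, adjusted p = 0.0578). Nr5a2, the target of the study's knockdown, measured 65.3 to 232 CPM (median 114) in experiment 1 and 41.8 to 224 CPM (median 77.1) in experiment 3. Its difference did not pass (-0.38, SE 0.17, adjusted p = 0.137), with 18 of 25 embryos below the experiment 1 median. Scaling on the oocyte list kept the signs of Klf17 (0.44) and Tfap2c (0.33) but neither passed.

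Messages of the mitochondrial genome were among the groups with the largest share of falls. Of 13 mRNAs of the mitochondrial genome 7 fell (53.8%, beside 6.49% of all genes) and 0 rose, with a median of -0.38 (-0.54 under scaling on the oocyte list). They made up 8.42% ± 2.42 of the counts in experiment 1 (SD, n = 24) and 6.85% ± 1.17 in experiment 3 (SD, n = 25). mt-Nd5, a subunit of complex I, measured 4068.5 to 10663 CPM (median 5605) and 2577 to 5537 CPM (median 3758), and every embryo of experiment 3 lay below the experiment 1 median (-0.65, SE 0.11, adjusted p = 6.19e-05). The other falls were mt-Nd6 (-0.60), mt-Nd2 (-0.53), mt-Nd4l (-0.53), mt-Nd4 (-0.44), mt-Co2 (-0.40) and mt-Nd1 (-0.38). mt-Cytb did not pass (0.03, adjusted p = 0.909), and neither did mt-Co1 (-0.32, adjusted p = 0.0534). Without the 2 least-like embryos 5 fell, mt-Co2 (-0.35, adjusted p = 0.0744) and mt-Nd1 (-0.34, adjusted p = 0.0771) no longer passing, and with the 9 depth-matched embryos 3 fell. These genes lie side by side on 1 polycistronic genome, so they are not independent of each other. Of 77 nuclear subunits of oxidative phosphorylation 10 rose (13.0%, beside 4.47% of all genes). Another 2 fell, a smaller share than the 6.49% of all genes. The median of these subunits was 0.15, which turned to -0.08 under scaling on the oocyte list, where 0 rose and 5 fell. Atp5mpl, a small subunit of ATP synthase (0.71), and Cox7a2 of cytochrome oxidase (0.60) led the rises, each with 25 of 25 embryos above the experiment 1 median. Ndufv3 (-0.85) and Atp5d (-0.60) fell, and Atp5d did not pass without embryo 3 of experiment 3 (-0.54, adjusted p = 0.0569). Of 76 mitochondrial ribosomal protein genes 3 rose (3.95%) and 4 fell (5.26%), near the shares of all genes, among them Mrpl53 (1.22), Mrps30 (-0.96) and Mrpl13 (-0.85).

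Lists for making proteins and messages differed in their share of rises, which was 4.47% over all genes. Of 69 ribosome biogenesis factors 7 rose (10.1%) and 0 fell, with a median of 0.16 (-0.07 under scaling on the oocyte list). Utp3 (1.03), Gnl2 (0.64), Nop2 (0.61), Gtpbp4 (0.44) and Rrn3, the initiation factor of RNA polymerase I (0.39), were among them. Of 38 translation factors 4 rose (10.5%) and 1 fell (2.63%), led by the helicase Eif4a1 (0.53), with Eif4g2 lower (-0.42), and the median was 0.20 (-0.03 under scaling on the oocyte list). Only Rps2 rose among 83 cytosolic ribosomal protein genes (0.58, 1.20% of them) and 0 fell. Of 84 genes of RNA polymerase II, Mediator and TFIID, 8 rose (9.52%) and 3 fell (3.57%), with a median of 0.13 (-0.14 under scaling on the oocyte list). Med10 (0.63), Polr2j (0.52) and the germline TFIID subunit Taf4b (0.65) rose, whereas Polr2a, the largest subunit of the polymerase, fell (-0.61), as did Med19 (-0.83) and Med13 (-0.39, and -0.36 with adjusted p = 0.0681 without embryo 3 of experiment 3). Under scaling on the oocyte list 0 members of these 4 lists rose.

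Calls in other lists are to be set beside 4.47% higher and 6.49% lower over all genes. Of 55 nuclear pore and transport genes 4 rose (7.27%) and 2 fell (3.64%). The further lists of this paragraph held up to 3 calls in a direction. Among 24 histone genes 3 rose (12.5%), H2bc21, H1f8 and the histone mRNA binding Slbp (0.42), and 3 fell (12.5%), H1f5 (-1.31), H4c4 (-1.45) and H2ax (-0.78). The cell cycle lists gave rises of Ccnb1 (0.42) and Cdc20 (0.52) among 48 genes of mitosis (4.17%), and 0 falls. The replication list of 54 genes gave a rise of Pola2 (0.66, 1.85%) and falls that included Pole (-0.47) and Chaf1b (-0.47). Without embryo 3 of experiment 3 Pole did not pass (-0.44, adjusted p = 0.0642), and without the 2 least-like embryos neither did Chaf1b (-0.46, adjusted p = 0.0603). Of 27 genes of p53 and damage response, Pmaip1 (0.95), Bax (0.57) and Gadd45b (0.48) rose (11.1%) and 0 fell, and Gadd45b did not pass without embryo 3 of experiment 3 (adjusted p = 0.0552). Of 24 genes of the integrated stress response, Ppp1r15a (0.53) and Wars (0.56) rose (8.33%) while Nupr1 (-1.47) and Slc3a2 (-0.53) fell (8.33%). Gapdh (0.68) rose (3.03%) and the oxygen sensor Egln1 (-0.69) fell beside Ndrg1 (6.06%) among 33 genes of glycolysis and hypoxia. Citrate synthase, Cs, rose (0.52), and Idh1 (-1.45), Mdh1 (-0.62) and Pdhb fell among 26 genes of the citric acid cycle (3.85% and 11.5%). In the list for double-stranded RNA and siRNA, chosen because all embryos received siRNAs, 2 of 31 rose (6.45%) and 3 fell (9.68%). The rises were the RNA editor Adar (0.57) and Oas1e (0.70). The falls were Drosha, the nuclease that starts miRNA processing (-0.67), with every embryo of experiment 3 below the experiment 1 median, Tarbp2, the partner of Dicer (-0.49), and Dhx58 (-1.12), which did not pass without embryo 3 of experiment 3 (-1.07, adjusted p = 0.0600). DNA methylation and imprint protection genes gave rises of Kdm1b (0.83), Zfp57 (0.46) and Cbx3 among 26 (11.5%), and 0 falls.

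**Figure D4:**
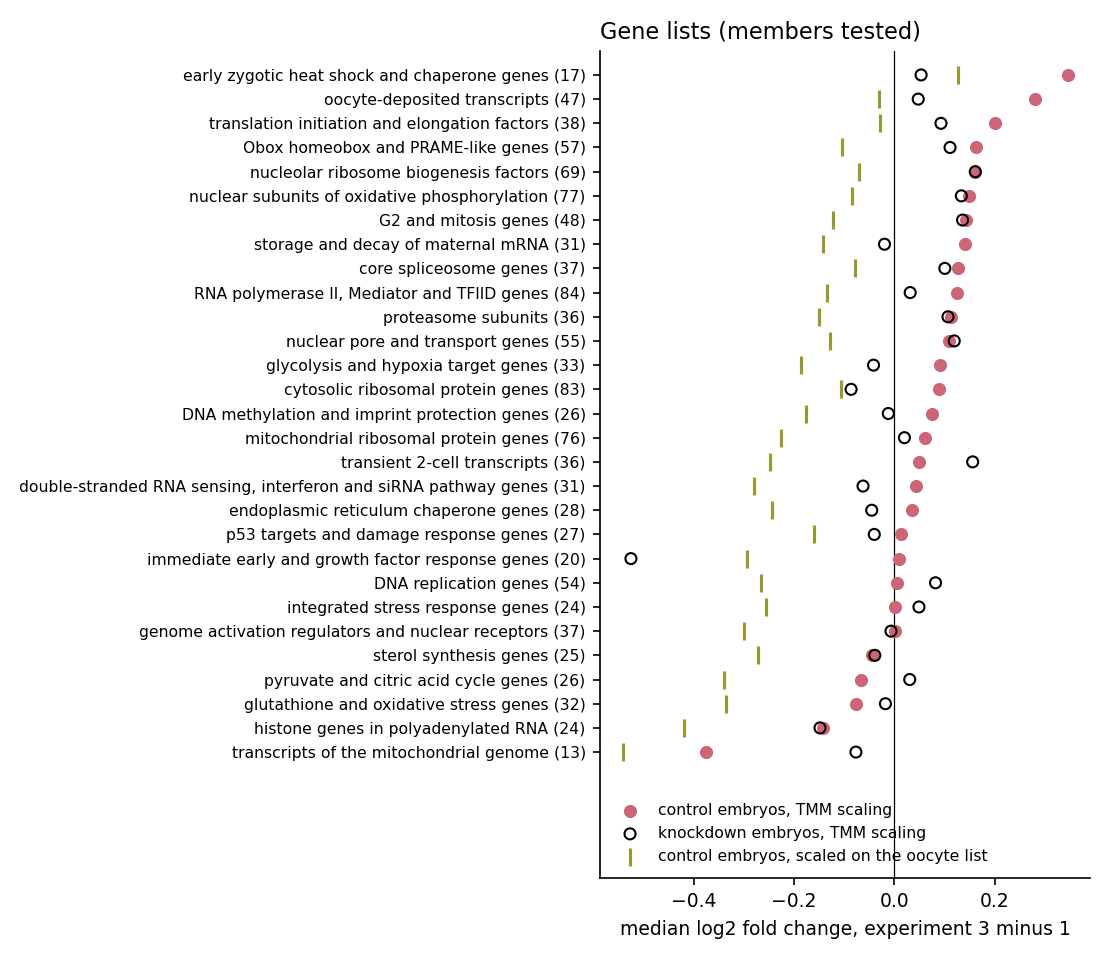
Median log2 fold change (experiment 3 minus experiment 1) over the tested members of each list with at least 10 of them, for control embryos under TMM scaling (filled), knockdown embryos (open) and control embryos scaled on the oocyte list (bars). Medians of most lists lie between -0.1 and 0.2 under TMM scaling, and most are below 0 under the other scaling.

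Many markers of other cell types had a median of 0, whereas Pecam1 and Amhr2 did not, and some moved with the experiment. Of 11 markers of cumulus and granulosa cells, 7 had a median of 0 in experiment 1 and 8 in experiment 3, Amh, Foxl2, Fshr and Has2 among them in both. Their summed level was 49.0 to 163 CPM in experiment 1 and 23.3 to 155 CPM in experiment 3, most of it from Amhr2 (medians 99.2 and 73.9 CPM), which did not pass (-0.26, adjusted p = 0.383). Tnfaip6, induced in the cumulus at ovulation, fell (-1.65, SE 0.31, adjusted p = 0.000223), from 1.63 to 36.0 CPM (median 11.9) to 0.219 to 14.8 CPM (median 3.44). Of the 7 sperm markers the sum was at most 5.52 CPM in experiment 1 and 8.60 CPM in experiment 3, with 4 and 5 medians at 0. Some markers that failed the low-count filter were called by edgeR without it. Tnp1 (-4.13, adjusted p = 4.77e-05), Foxl2 (-3.09, adjusted p = 0.009995) and Fshr (-3.11, adjusted p = 0.00726) were lower, and Smcp (2.14, adjusted p = 0.0141) was higher. Their mean levels were at most 0.735 CPM in either group. Smcp was at 0 in 23 of 24 embryos of experiment 1 and in 24 of 25 of experiment 3, where 1 embryo had 2.43 CPM. Fshr was at 0 in 22 and 25 embryos, Foxl2 in 15 and 21, and Tnp1 in 9 and 22. The highest Foxl2 level was 11.0 CPM, in experiment 1. Of 5 blood and stroma markers Hbb-bs was at 0 in all 49 libraries. Hba-a1 was called lower close to the threshold (-0.89, adjusted p = 0.0479) and did not pass without the 2 least-like embryos (-0.74, adjusted p = 0.114), in limma-voom (-0.78, adjusted p = 0.116) or with the replicate block (-0.87, adjusted p = 0.0563). Of the longer list Hba-a2 fell (-1.05, adjusted p = 0.00395), also without those embryos (-0.91, adjusted p = 0.0107). The macrophage gene Lyz2 was called lower (-1.77, adjusted p = 0.0479) but not in limma-voom (-1.16, adjusted p = 0.387), and it failed the low-count filter without those embryos. Sums of the 5 were 247 to 679 CPM and 230 to 868 CPM, most of it Pecam1 (medians 344 and 354 CPM, log2 fold change 0.14, adjusted p = 0.514). A single transcript with a retained intron held 88.1% and 89.5% of the Pecam1 counts. The lowest embryos had 231 and 227 CPM of Pecam1, and whether it came from such cells was not tested. The part of such cells in the falls of the other genes was not tested.

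Calls were spread unevenly over gene properties, looked at after the fold changes were known. Each eighth held 1682 genes for length and for GC content, and 1687 for abundance. Over all 13496 genes 603 rose (4.47%) and 876 fell (6.49%). In the eighth of genes with the longest transcripts (above 4805 bases), 42 rose and 220 fell with a median of -0.14, whereas in the shortest eighth 93 rose and 79 fell with a median of 0.06. In the eighth with the highest GC content (above 56.6%), 51 rose and 169 fell with a median of -0.12. In the lowest eighth 100 rose and 89 fell with a median of 0.03. In the most abundant eighth 143 rose and 96 fell. The knockdown embryos gave medians of -0.12 for the longest transcripts and -0.12 for the highest GC content. The part of transcript length and base composition in the calls was not tested.

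Over the 49 embryos the first principal component took 33.2% of the variance of 7238 genes and the second 8.68%. The first had Zscan4c and other 2-cell transcripts at its positive end, with 18 of the 31 measured list members among the most extreme 10% of genes. Scores on it ran from -49.1 to 65.2 in experiment 1 and from -49.96 to 74.9 in experiment 3, so the groups lay over each other there. On the second, experiment 1 scored -12.0 ± 14.1 (SD, n = 24) and experiment 3 scored 11.5 ± 12.1 (SD, n = 25), with ranges of -38.4 to 20.3 and -7.88 to 44.1 that overlapped. Rab29, Nupr1, Ndrg1, Fam136a and Lrtm1 stood at its negative end and Ift43, Cmya5, Obox5, Rfpl4 and Btg4 at its positive end. The third took 6.65%, with 26 of the 31 list members among its most extreme 10% of genes. Fam136a and Rab29 stood at its negative end, and Eif1ad7, Eif1ad3 and Usp17lc of that list at its positive end. Experiment 1 scored -5.83 ± 14.5 on it (SD, n = 24) and experiment 3 scored 5.59 ± 14.4 (SD, n = 25), with ranges of -33.4 to 19.7 and -22.3 to 38.9 that overlapped.

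The knockdown embryos, none of which enter the control comparison, gave a second view of the same experiments. Of 13518 genes tested between 16 embryos of experiment 1 and 23 of experiment 3, 3 were higher (Glce, Trim23 and Zfp26, 0.0222%) and 65 lower (0.481%). Of the 1449 genes called in control embryos and tested in both, 1302 had the same sign in knockdown embryos (89.9%), against 67.6% of all 13211 genes tested in both. The 55 genes called in the same direction in both arms were 80.9% of the knockdown calls and 3.80% of the control calls. Medians lay nearer to 0 there: genes called higher in controls had medians of 0.63 in control and 0.26 in knockdown embryos, and genes called lower had -0.71 and -0.45. These genes were chosen on the control values, and the difference between arms was called for the 1 gene given below. Among the shared falls, chosen after their values were seen, were Lrtm1 (-1.51 in control and -1.74 in knockdown embryos), Pam, which amidates peptide hormones (-1.22 and -1.31), Lars2, the mitochondrial leucyl-tRNA synthetase (-0.87 and -1.19), and Foxo1, a forkhead factor (-0.79 and -1.12). Klf4 (-1.004, adjusted p = 0.0142), Nefl (-3.29, adjusted p = 0.0282) and Ndrg1 (-1.65, adjusted p = 0.0190) also fell in knockdown embryos. Rab29 (-1.52, adjusted p = 0.0710), Gpr83 (-3.29, adjusted p = 0.0516) and Fam136a (-1.205, adjusted p = 0.0662) did not pass there. The median of the oocyte-deposited list was 0.05 in knockdown embryos, and that of the mitochondrial genome -0.08, with 0 members of either called.

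In a model of both arms the term for a difference between them was called for 1 gene of 15492 (0.00645%), and 811 had an unadjusted p under 0.05. The gene was H2bc21, which was higher in experiment 3 among controls and lower among knockdown embryos (-2.25, adjusted p = 0.00108), with a difference of -7.50. Its knockdown levels were 9.70 to 179 CPM in experiment 1 (median 76.6) and 0 to 49.1 CPM in experiment 3 (median 15.7). The rsEGFP marker moved the same way, from 143 to 6836 counts in experiment 1 to 2 to 405 counts in experiment 3. No other gene was called, which at this spread does not show that the remaining differences were equal in both arms.

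**Figure D5:**
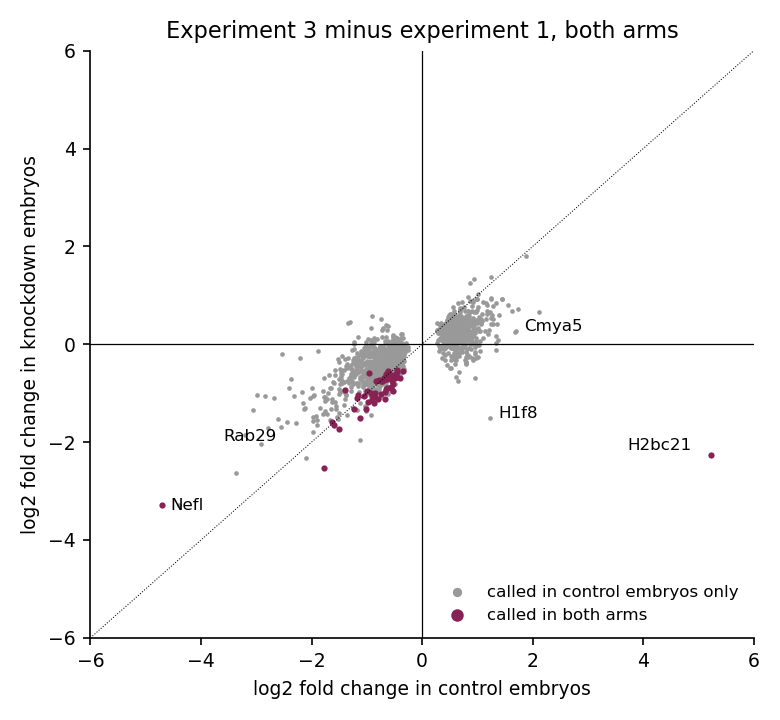
Log2 fold change (experiment 3 minus experiment 1) in knockdown embryos against that in control embryos, for the genes called in control embryos and tested in both arms, with a dotted line of equality. Most points lie at the lower left or upper right, and H2bc21 lies alone at the lower right.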

How the data were processed

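The values used were the authors' deposited estimated counts of each transcript without normalization. The submitters' processing notes name kallisto 0.46.1 beside Trim Galore 0.6.2, bcl2fastq, DESeq2 1.32.0 and R 3.5.1, and the builds hg19 and mm10 without a role. A deposited table of batch-adjusted values, read as a score with its method not given in the sources used here, served as 1 alternative (limma). From the authors' deposited table of log2 fold changes only transcript and gene names were used.

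Transcripts were summed to 35973 gene symbols, leaving out 2164 without a name (0.776% to 1.29% of the counts of each embryo) and 2 reporter rows, and rounded. No per-sample column was unmatched (0), no libraries were identical, and the highest correlation of 2 controls was 0.930. The quasi-likelihood F-test of edgeR 4.0.16 (R 4.3.3, limma 3.58.1) was run after filterByExpr and TMM scaling, with Benjamini-Hochberg adjustment at 0.05, 47 residual degrees of freedom and a biological coefficient of variation of 0.591. CPM values use TMM factors over 111 libraries, and marker CPM the total over genes. Reads carry no molecular identifiers, and the protocol does not record strand, so overlapping genes may share reads. Single measures were tested with 100000 permutations, two-sided (SciPy 1.17.1). The test was checked on simulated counts.

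Named were Nr5a2, the 10 largest called changes per direction (average log2 CPM of at least 4, no clone names), the 3 smallest p per direction, and up to 2 called members per direction of 32 lists or else the smallest p, 111 genes in all, 109 of them called. Further list members, and the genes said to be so, were named after their values were seen. Members and lists were chosen with earlier results of these data known. Alternatives were other scalings, filters, thinning, a depth covariate, embryo number as a block, all 6 groups in 1 model, limma-voom, DESeq2 1.42.0 and left-out embryos.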

Additional observations from a re-analysis of the deposited data

Results flagged for a closer look

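In the 7 control embryos of experiment 2, which enter no test here, 25 levels were checked for an embryo far from the others, and 9 had one. By chance about 1 in 20 such groups gives one if values are normally distributed and independent. These were CPM without a log, and 1 embryo held several of the high values, so that rate need not hold here. The highest embryo stood apart for H2bc21 (1179 CPM, with 416 CPM next), for the EGFP marker (5426 CPM, with 1873 CPM next), for Nefl (38.3 CPM, with 2.52 CPM next), for Gstm1 (58.8 CPM, with 4.65 CPM next) and for Myl3 (7.25 CPM, with 0.720 CPM next). The same was found for Sphk1 (39.5 CPM), Mcfd2 (275 CPM), Krt18 (23.4 CPM) and Dek (209 CPM). Embryo 2 of experiment 2 held the high values of Nefl, Gstm1, Myl3 and H2bc21. Its Nefl, Gstm1 and Myl3 levels lay within the ranges of the experiment 1 controls.

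The change of H2bc21 between experiments differed between control and knockdown embryos, with an interaction of -7.50 on the log2 scale.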

How the results depend on the processing

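Of the control calls, 603 higher and 876 lower, the counts stayed within 1.5 times under other size factors, library totals, a stricter filter, a covariate for the total, thinning, all 6 groups, limma-voom, DESeq2 (743 and 1106), and, chosen after seeing the data, without embryo 3 of experiment 3 or the embryo least like the others in each group. Without a low-count filter 1040 and 1333 were called, and scaled on the oocyte list 87 and 2096. With totals within the range of experiment 3 (9 against 25 embryos) 95 and 328 were called. With the authors' batch-adjusted values (limma) 1 was higher and 0 lower, with 159 at an unadjusted p under 0.05. If batch there meant the experiment, that adjustment took out the very difference compared here, so these values cannot check the calls. Higher calls were 40.8% of all, and 3.99%, 22.5% and 100% under the last 3 of these settings. In knockdown embryos (3 and 65) library totals gave 227 lower and no filter gave 65 and 408. Under library totals 3 genes had a called difference between the arms.

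Embryo numbers did not pair samples: over 24 numbers the median correlation of deviations was 0.0842, and 2 embryos were most like their own number. With the number as a replicate block 689 control genes were higher and 792 lower, and 0 and 0 in knockdown embryos (edgeR, 817 at an unadjusted p under 0.05). Of 109 called genes chosen by the naming rule, 102 passed with it, 63 when scaled on the oocyte list, 39 with totals within the range of experiment 3, 1 with the batch-adjusted values, and 89 to 109 under the other settings.

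Among the 111 genes of the naming rule, signs turned only with the batch-adjusted values, for 13: Nr5a2 (0.0172), Mcfd2 (-0.57), Ndrg1 (0.0909), Pan2 (-0.11), Eif4a1 (-0.0216), Psmb2 (-0.0337), Seh1l (-0.11), Tpr (0.01525), Bax (-0.10), Adar (-0.17), Kdm1b (-0.0123), Polr2j (-0.0626) and Tssk6 (0.0527). Some other printed genes turned too. Cnot4 (-0.24), Lsm14b (0.12), Zfp36l2 (0.11) and Zscan4c (0.0802) were among those that did so with the batch-adjusted values. Zp3 turned with totals within the range of experiment 3 (-0.13) and under scaling on the oocyte list (-0.071), where mt-Cytb did as well (-0.16), and H2bc4 turned with limma-voom (0.37) and the replicate block (0.20). The cause was not tested.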
